A study of Arabidopsis thaliana with 24 samples.

Results

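A set of 200 array rows was described that had a 24 h rhythm in Col, the Columbia wild type of *Arabidopsis thaliana*, and a fitted amplitude in *rve8-1* that was at most 0.5 of the Col amplitude. A 24 h cosine with an intercept was fitted by least squares to the 12 log2 values of each genotype. A row became a member when it was nuclear, had a Col amplitude of at least 0.4 log2 units and a Col R-squared (the share of variance the cosine takes up) of at least 0.6, and met that ratio. Of 30237 rows on the array, 1475 passed the Col thresholds, and the 200 members, from 198 loci, were 13.6% of these and 0.664% of the 30137 nuclear rows. The other 1275 rhythmic rows are used for comparison. RefSeq (assembly TAIR10.1) matched 190 of the member rows to a locus and gave 50 of them a gene symbol.

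In the mutant, a T-DNA is inserted in the *RVE8* gene, and a single such line was used. Seedlings of *rve8-1* and of Col were grown on agar medium with sucrose in cycles of 12 h light and 12 h dark for 7 days. They were then moved to constant light, with no other treatment. Both genotypes shared these conditions. Whole seedlings, about 50 pooled per sample, were harvested from each genotype every 4 h from 72 to 116 h in constant light, with 1 array per harvest. Circadian times (CT, hours from subjective dawn) 0, 4, 8, 12, 16 and 20 were thus each sampled on day 4 and on day 5 of free run, and the day 5 array is the replicate of the day 4 array in the tests below. A tiling array read pooled RNA of whole seedlings, so fewer cells of a type cannot be told apart from less RNA per cell. Both root and shoot markers were present. The summed log2 level of 6 root markers was 11.6 to 12.0 in *rve8-1* arrays and 11.6 to 12.0 in Col arrays, that of 5 shoot marker rows 15.4 to 15.6 in each genotype, and that of 5 seed storage markers 6.8 to 7.9 in *rve8-1* arrays and 6.4 to 7.5 in Col arrays. Their part in the results was not tested.

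The plant circadian clock is a network of transcription factors that act on one another at set times of day. *RVE8* is a Myb-like factor of the *CCA1* and *LHY* family whose transcript peaks around dawn and which activates genes expressed in the evening, among them the clock gene *TOC1*. Clock outputs such as starch turnover, hormone responses and nutrient uptake follow this network, and the amplitude of such a rhythm can differ from its time of peak and from its mean level.

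Whether these rows are damped in *rve8-1* as a group was checked first, and the answer differed with how it was asked. With the genotypes exchanged in the same rule, 227 of the 1537 rows rhythmic in *rve8-1*, or 14.8%, were at no more than 0.5 of their amplitude in Col. Rows at low amplitude in *rve8-1* were thus not more frequent than rows at low amplitude in Col. The choice was also repeated on day 4 alone, with day 5 left to measure the ratio. Of 3125 rows rhythmic in Col on day 4, the 772 chosen had a median amplitude ratio on day 5, *rve8-1* over Col, of 1.08, against 0.963 in the 2353 not chosen. On day 5, 17.7% of the chosen rows were at or below 0.5, against 12.2% of the rows not chosen. With the days exchanged, the medians were 1.05 in 833 chosen rows and 1.00 in 2039 others. A 1-day choice fits 3 terms to 6 arrays, and it selects for a high Col amplitude on that day as well as a low one in *rve8-1*. In a version added after seeing the data, Col was held to the fit over both days and only the *rve8-1* day was exchanged. Here 123 rows chosen on day 4 had a median ratio of 0.623 on day 5, against 0.847 for the other 1352 rows. Rows chosen on day 5, 218 in all, had a median ratio of 0.832 on day 4, against 1.01 for the other 1257. By this choice, 38.2% and 21.6% of the chosen rows were again at or below 0.5 on the day not used, against 12.6% and 6.05% of the rows not chosen. The Col fit is shared by choice and measure here. With each of the 24 arrays left out in turn, the rule gave 184 to 482 rows, and 51 of the 200 were members every time. The count was 482 without the Col array at 96 h and 355 without that at 84 h, and within 1.5 times of 200 otherwise. The rows are therefore named by their rule below.

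**Figure D1:**
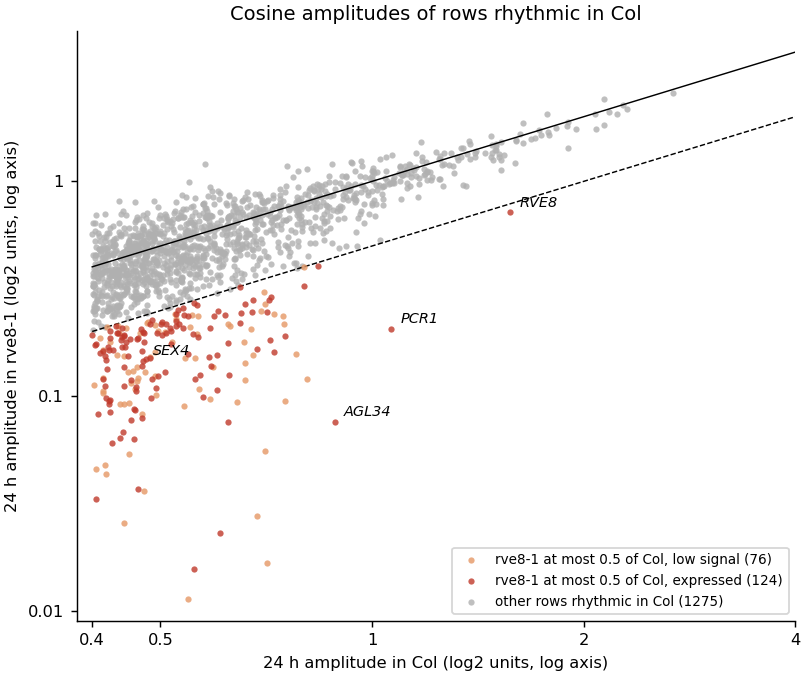
Fitted 24 h amplitude in *rve8-1* (vertical axis, log2 units) against that in Col (horizontal axis, log2 units) for the 1475 rows rhythmic in Col, both on log axes. The solid line marks equal amplitudes and the dashed line a ratio of 0.5, below which lie the 200 members, 124 of them expressed and 76 with low signal.

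The fitted values that chose the members are given as a description. Their *rve8-1* amplitudes had a median of 0.16 log2 units (0.01 to 0.72) and their Col amplitudes a median of 0.49 (0.40 to 1.57). The ratio had a median of 0.333 (0.0207 to 0.50). Members nearest under the ratio of 0.5 were *ULI3*, a gene named for UV-B insensitivity, at 0.499, the pseudogene AT3G30749 at 0.499 and *WUS*, the homeobox regulator of shoot stem cells, at 0.50. Rows nearest over it were the pseudogene AT1G42705 at 0.501, AT2G35390 at 0.502 and *HAI1*, an abscisic acid-induced protein phosphatase gene, at 0.503. R-squared had a median of 0.114 in *rve8-1* and 0.705 in Col. The rule sets a limit on R-squared in Col and none in *rve8-1*, and so bears on the scatter around the cosine, which is given as a description. The residual SD had a median of 0.35 in *rve8-1* and 0.26 in Col and was the higher of the pair in *rve8-1* for 164 of the 200 members, against 61.7% of the other rhythmic rows. The median *rve8-1* amplitude was thus smaller than the median scatter around it.

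A row was called expressed when at least 4 arrays of either genotype exceeded 4.5 on the log2 scale. Of the members 124 passed, 105 of them in both genotypes, 17 through the Col arrays alone and 2 through the *rve8-1* arrays alone, and 76 did not pass. Members made up 9.27% of the 1337 expressed rows rhythmic in Col and 55.1% of the 138 rhythmic rows that were not expressed. RefSeq classes 36 members as pseudogenes, 18.0% of 200, against 25 (1.96%) of the other rhythmic rows. Among expressed rows the counts were 17 of 124 members (13.7%) and 8 of 1213 other rhythmic rows (0.66%), and among rows that were not expressed they were 19 of 76 members and 17 of 62 other rhythmic rows.

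Members were not spread evenly over the day. In Col, 90 members (45.0%) peaked from CT 0 to 4, against 195 (15.3%) of the other rhythmic rows. Among expressed rows that bin held 41.1% of members and 13.5% of other rhythmic rows. Among rows that were not expressed the shares were close, at 51.3% and 50.0%. A further 32 members peaked from CT 12 to 16, of which 30 were expressed. That bin held 24.2% of the expressed members and 13.3% of the other expressed rhythmic rows. The remaining bins held 19 (CT 4 to 8), 15 (CT 8 to 12), 21 (CT 16 to 20) and 23 (CT 20 to 24) members. Dawn rows and evening rows differed in signal, and they are therefore described apart.

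**Figure D2:**
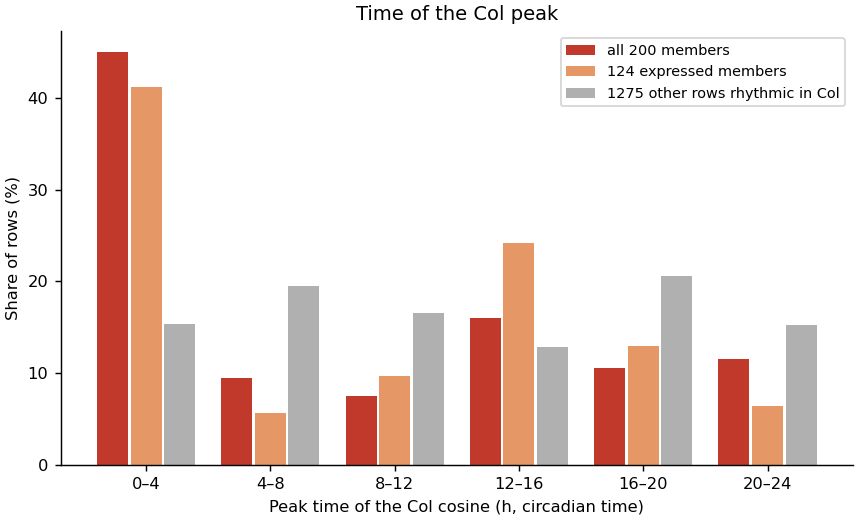
Share of rows (%) by the peak time of the Col cosine in bins of 4 h of circadian time, for all 200 members, the 124 expressed members and the 1275 other rows rhythmic in Col. The bin from 0 to 4 h holds 45.0% of the members and 15.3% of the other rows.

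*RVE8* (AT3G09600) met the rule as well, and was the member with the largest Col amplitude. In *rve8-1* its level was lowest at 3.17, had a median of 3.93 and was highest at 4.70, while in Col it was lowest at 4.28, had a median of 6.34 and was highest at 7.37. The genotypes overlapped only where the Col trough met the *rve8-1* peak. The amplitude was 0.72 in *rve8-1* and 1.57 in Col, a ratio of 0.456, which was 0.454 on day 4 and 0.451 on day 5. The cosine fitted the values closely in the mutant too, with R-squared 0.957 in *rve8-1* and 0.928 in Col. The paper, by its own criteria, lists *RVE8* among genes that cycle in Col only. Only 3 *rve8-1* arrays exceeded 4.5, so the range of the mutant rhythm lay close to the signal floor. The other genes of its clade did not meet the rule. *LCL1*, its nearest relative, had an amplitude of 0.36 in *rve8-1* and 0.38 in Col, and AT5G52660, of the same clade, 0.13 in *rve8-1* and 0.11 in Col.

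Besides *RVE8*, 4 members kept an R-squared of at least 0.6 in *rve8-1*. They were AT1G22570 with an amplitude of 0.40 in *rve8-1* and 0.84 in Col, AT1G49990 with 0.23 in *rve8-1* and 0.49 in Col, AT5G61820 with 0.22 in *rve8-1* and 0.51 in Col, and AT1G71060 with 0.20 in *rve8-1* and 0.52 in Col. Their *rve8-1* peaks came later than the Col peaks by 4.01 h, 3.91 h, 3.93 h and 3.58 h. On day 4 alone the ratio was 0.551 for AT1G22570 and 0.501 for AT1G49990. AT5G61820 lay between 8.05 and 8.78 in *rve8-1* arrays and between 7.88 and 8.94 in Col arrays, so the mutant range sat inside that of the wild type. *RVE8* itself was later by 5.54 h.

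Starch breakdown was represented by *SEX4*, a phosphatase that removes phosphate groups from starch granules so that degradation at night can proceed. Its level ranged from 7.33 (median 7.82) to 8.15 in *rve8-1* and from 7.57 (median 8.13) to 8.6 in Col. The Col cosine peaked at CT 10.4, and the 4 highest Col arrays were those at CT 8 and CT 12 of both days, while the 4 highest *rve8-1* arrays came from CT 8, 12, 16 and 20. The amplitude was 0.15 in *rve8-1* and 0.47 in Col, and the ratio was 0.358 on day 4 and 0.424 on day 5. Of the 22 genes on a starch metabolism list, 14 were rhythmic in Col and *SEX4* was the only member. Their ratio had a median of 0.959. *SEX1*, the glucan water dikinase that adds the phosphate, peaked at CT 10.1 in Col like *SEX4* and had an amplitude of 0.80 in *rve8-1* and 0.81 in Col. The related phosphatases *LSF1*, with 0.04 in *rve8-1* and 0.08 in Col, and *LSF2*, with 0.29 in *rve8-1* and 0.11 in Col, did not pass the Col thresholds.

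Genes with roles in hormone and sugar responses were also found among the members. *RGL1*, 1 of the 5 DELLA repressors of gibberellin signalling, ranged from 5.59 (median 5.84) to 6.39 in *rve8-1* and from 5.49 (median 6.08) to 6.59 in Col. The 3 highest Col arrays were harvested at 84, 88 and 108 h, and the 3 highest *rve8-1* arrays at 88, 92 and 112 h. Its amplitude was 0.18 in *rve8-1* and 0.52 in Col, with ratios of 0.438 on day 4 and 0.221 on day 5. The DELLA gene *RGL2*, also rhythmic in Col, had 0.45 in *rve8-1* and 0.54 in Col, and *GAI* had 0.23 in *rve8-1* and 0.19 in Col. *DOGT1*, also known as *UGT73C5*, glucosylates brassinosteroids and the toxin deoxynivalenol. Its level ranged from 5.19 (median 5.52) to 6.12 in *rve8-1* and from 4.75 (median 5.72) to 6.68 in Col, with an amplitude of 0.33 in *rve8-1* and 0.80 in Col. It crested near 96 and 112 h in *rve8-1* and near 84 and 108 h in Col, and its ratio was 0.549 on day 4 and 0.304 on day 5. *GBF6*, the bZIP11 factor whose translation is repressed by sucrose, had an amplitude of 0.22 in *rve8-1* and 0.48 in Col (ratio 0.487 on day 4 and 0.422 on day 5). The related factor *bZIP1* had 0.75 in *rve8-1* and 0.72 in Col. Another member row, AT4G34588, comes just before *GBF6* (AT4G34590) in locus number and was not matched in RefSeq. It had 0.22 in *rve8-1* and 0.53 in Col, but the ratio was 1.33 on day 4 and 0.187 on day 5. Whether this row reads a transcript separate from that of *GBF6* was not tested.

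Several members encode enzymes of secondary and amino acid metabolism. *IGMT5* and *IGMT2* encode methyltransferases that modify indole glucosinolates, the defence compounds of the mustard family. *IGMT5* ranged from 7.98 (median 8.41) to 9.03 in *rve8-1* and from 8.04 (median 8.55) to 9.06 in Col, so the ranges nearly coincided. Its amplitude was 0.18 in *rve8-1* and 0.44 in Col, with ratios of 0.535 on day 4 and 0.487 on day 5. *IGMT2* had 0.16 in *rve8-1* and 0.55 in Col at levels of 3.55 to 4.65 in *rve8-1* and 3.65 to 4.98 in Col. The neighbouring *IGMT4* had 0.91 in *rve8-1* and 0.83 in Col, and *IGMT1* had 0.56 in *rve8-1* and 0.65 in Col. *IGMT1*, *IGMT2* and *IGMT4* are close copies, so signal shared between them cannot be told apart. *UGT73B2*, a flavonoid glucosyltransferase, had 0.19 in *rve8-1* and 0.75 in Col, but the ratio was 0.919 on day 4 and 0.121 on day 5. *P5CS2*, a synthase of the proline pathway, ranged from 5.51 (median 6.26) to 6.79 in *rve8-1* and from 5.98 (median 6.51) to 7.14 in Col. Its lowest *rve8-1* array, at 116 h, stood apart from the rest. The *P5CS2* amplitude was 0.12 in *rve8-1* and 0.49 in Col, with ratios of 0.361 on day 4 and 0.602 on day 5. *P5CS1*, the other such synthase, did not pass the Col amplitude threshold and had 0.13 in *rve8-1* and 0.33 in Col. *AAS*, an aromatic aldehyde synthase, had 0.21 in *rve8-1* and 0.43 in Col, with ratios of 0.687 on day 4 and 0.318 on day 5. The heat-inducible chaperone gene *HSP90.1* had 0.20 in *rve8-1* and 0.51 in Col, with ratios of 0.953 on day 4 and 0.241 on day 5.

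Transporter genes were found among the members as well. *TDT*, the tonoplast dicarboxylate transporter that moves malate into the vacuole, ranged from 7.73 (median 8.01) to 8.56 in *rve8-1* and from 7.32 (median 7.99) to 8.41 in Col. Both genotypes cycled on day 4, and the highest *rve8-1* array came at 100 h. The amplitude was 0.21 in *rve8-1* and 0.47 in Col, with a ratio of 0.544 on day 4 and 0.583 on day 5. Each day alone thus gave a ratio over 0.5. *NRT1.1*, a nitrate transporter and sensor, ranged from 7.85 (median 8.21) to 8.56 in *rve8-1* and from 7.56 (median 8.20) to 8.64 in Col, with an amplitude of 0.10 in *rve8-1* and 0.42 in Col. Its ratio was over 0.5 on each day, at 0.618 on day 4 and 0.522 on day 5. Of 7 nitrogen assimilation genes 3 were rhythmic in Col, and *NRT1.1* was the member among them. *OCT5*, an organic cation transporter peaking at CT 14.2 in Col, had 0.19 in *rve8-1* and 0.46 in Col. *GSTF14*, a glutathione transferase gene, had 0.29 in *rve8-1* and 0.72 in Col, with ratios of 0.227 on day 4 and 0.572 on day 5.

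**Figure D3:**
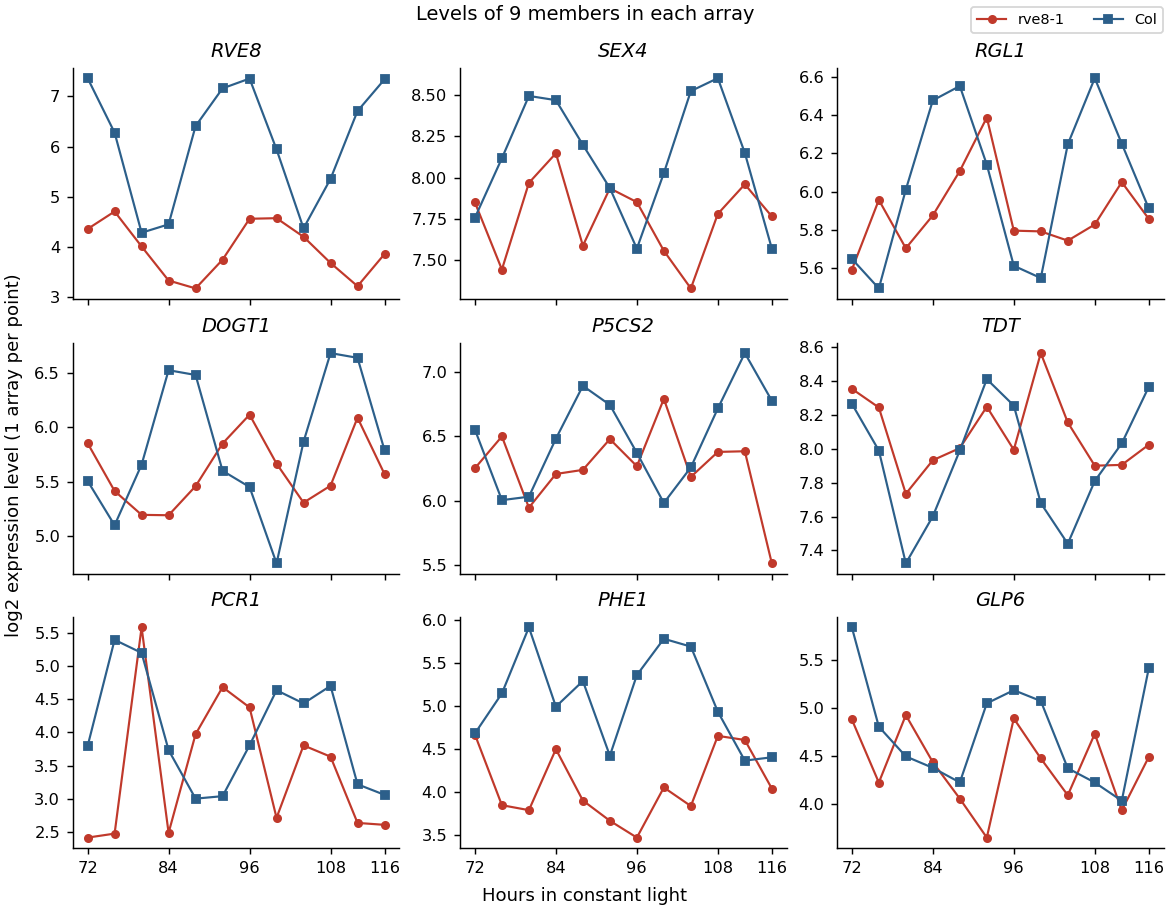
Log2 expression level of *RVE8*, *SEX4*, *RGL1*, *DOGT1*, *P5CS2*, *TDT*, *PCR1*, *PHE1* and *GLP6* against hours in constant light, with 1 array per point, *rve8-1* as red circles and Col as blue squares. The vertical axes differ between panels. *RVE8* values in *rve8-1* still followed a fitted 24 h cosine, mostly below the Col levels. *PCR1* showed single *rve8-1* arrays far from their neighbours in time.

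Other pathway lists held 0 or 1 member each. Members were 13.6% of all rows rhythmic in Col and 9.27% of the expressed ones. A count of 0 in a single list with few rhythmic genes is near these shares. The lists were not pooled, and no list was tested. On the core clock list 24 of 28 genes were rhythmic in Col, with a median ratio of 1.02, and *RVE8* was the member. Of heat shock genes 2 of 11 were rhythmic, with *HSP90.1* as a member and *HSP70* at a ratio of 0.616. Lists of photoperiodic flowering, the PIF growth pathway, cold response, flavonoid synthesis and light harvesting held 0 members, with 8, 6, 9, 11 and 6 genes rhythmic in Col and median ratios of 0.942, 1.04, 0.887, 0.925 and 0.958. The glucosinolate, jasmonate, touch and wound, iron and sulfur lists also held 0 members, with 1, 3, 1, 1 and 1 genes rhythmic. *IGMT2* and *IGMT5* are not on the glucosinolate list used.

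Some of the largest amplitude differences belonged to rows whose *rve8-1* arrays scattered. *PCR1*, a plant cadmium resistance protein of the plasma membrane, had an amplitude of 0.21 in *rve8-1* and 1.06 in Col. In *rve8-1* it ranged from 2.42 (median 3.17) to 5.58, and in Col from 3.0 (median 3.80) to 5.39. The lowest and the highest *rve8-1* arrays lay within 8 h of each other, at 72 and 80 h, and the residual SD was 1.15 in *rve8-1* and 0.37 in Col. *AGL34*, a MADS-box gene, had 0.08 in *rve8-1* and 0.88 in Col. It ranged from 3.79 (median 4.52) to 5.53 in *rve8-1* and from 3.58 (median 5.0) to 6.0 in Col. Further large differences were found for AT1G44060, AT2G12461, AT3G10526, AT4G14096 and AT2G10340, with *rve8-1* amplitudes of 0.02 to 0.16 and Col amplitudes of 0.56 to 0.73. For AT1G44060 the *rve8-1* amplitude was 0.53 on day 4 and 0.56 on day 5 (ratios 0.670 and 1.28), against 0.02 over both days, and AT2G10340 had ratios of 0.829 on day 4 and 0.713 on day 5. AT3G10526 had 0.362 on day 4 and 0.644 on day 5, while AT2G12461 and AT4G14096 were at or below 0.5 on each day. AT1G44060 is a pseudogene, and AT3G10526 and AT2G10340 were not matched in RefSeq.

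The days were then fitted apart. Of the 200 members, 42 were at or below 0.5 on each day, 38 on day 4 alone, 61 on day 5 alone and 59 on neither day. The rule used the arrays of both days, so these counts are a description and not independent support. Among all 1475 rows rhythmic in Col, 43 (2.9%) were at or below 0.5 on each day. Of the 42, 21 were expressed, and 16 of these peaked in Col from CT 8 to 20. In order of amplitude difference the first 10 expressed were *PCR1*, *RVE8*, *AGL34*, AT2G12461, AT4G14096, AT4G21605, AT1G16850, *IGMT2*, AT1G21400 and *RGL1*. AT1G16850 had an amplitude of 0.25 in *rve8-1* and 0.71 in Col, with ratios of 0.305 on day 4 and 0.434 on day 5. It ranged from 5.91 (median 6.29) to 6.75 in *rve8-1* and from 5.46 (median 6.57) to 7.58 in Col, with Col crests at 84 and 108 h. AT1G21400 had 0.03 in *rve8-1* and 0.41 in Col, and AT4G14096 had 0.02 in *rve8-1* and 0.56 in Col. Chosen after its values were seen, AT1G08230 had the highest Col R-squared of all members, 0.962, and 0.168 in *rve8-1*. Its amplitude was 0.09 in *rve8-1* and 0.42 in Col, and the ratio was 0.227 on day 4 and 0.240 on day 5. Likewise AT1G01970 (0.292 on day 4 and 0.483 on day 5), *SRD2*, a factor of small nuclear RNA transcription (0.269 and 0.319), and *SCPL51*, a carboxypeptidase-like gene (0.355 and 0.223), were low on each day.

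**Figure D4:**
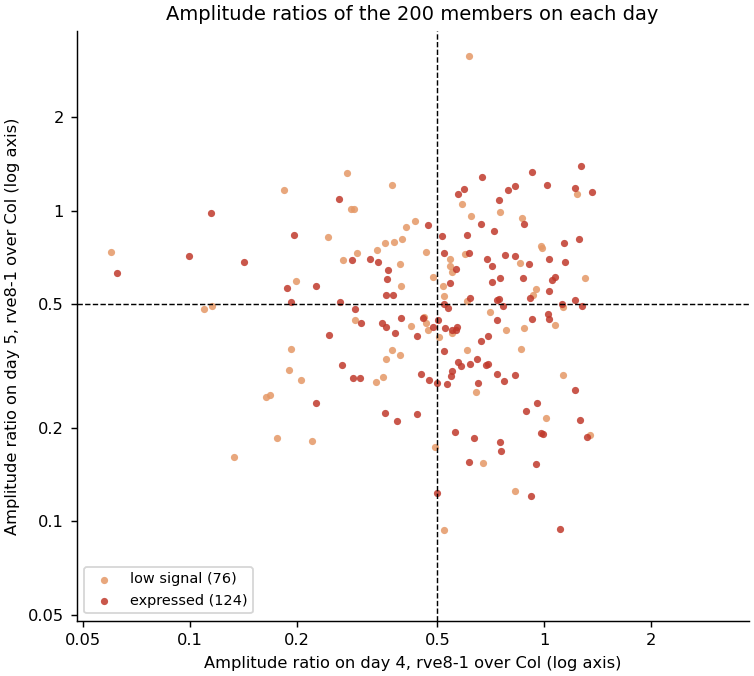
Amplitude ratio, *rve8-1* over Col, fitted to day 5 alone (vertical axis) against that fitted to day 4 alone (horizontal axis) for the 200 members, both on log axes, with dashed lines at 0.5. The lower left quadrant holds the 42 members that were at or below 0.5 on each day.

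Peak time was not part of the rule. In *rve8-1* the members' cosine peaked a median of 2.81 h later than in Col (25th to 75th percentile, -1.70 to 5.94 h), against 4.62 h (3.90 to 5.37 h) in the other rhythmic rows, and the phase of a low amplitude is poorly set. Among the 39 members with R-squared of at least 0.3 in *rve8-1* the median was 4.25 h. All 30 such expressed members with a Col peak from CT 8 to 20 were later in *rve8-1*, by a median of 4.75 h. A *rve8-1* rhythm with a period other than 24 h loses amplitude in a 24 h fit. With the best period from 20 to 28 h for each genotype, 128 of the 200 rows were still members.

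The dawn rows moved with the signal floor of the arrays. The 25th percentile of all rows on an array, which lies below the expression threshold, ranged from 3.76 to 4.1 in *rve8-1* and from 3.76 to 4.17 in Col. A 24 h cosine fitted to it had an amplitude of 0.06 and R-squared of 0.149 in *rve8-1*, and an amplitude of 0.13, R-squared of 0.566 and a peak at CT 1.01 in Col. The mean level of the 90 dawn members ranged from 3.94 (median 4.43) to 4.64 in *rve8-1* arrays and from 3.95 (median 4.34) to 5.04 in Col arrays. Over 12 arrays of each genotype it correlated with the 25th percentile with r = 0.922 in *rve8-1* and 0.890 in Col. The mean of the 195 other rhythmic rows with a dawn peak had r = 0.118 in *rve8-1* and 0.724 in Col, and the mean of the other 110 members 0.554 in *rve8-1* and -0.692 in Col. These correlations share the arrays and their normalization and are a description. The 25th percentile was also entered as a covariate in the cosine fits. With it, 9 of the 90 dawn members and 58 of the 110 other members still met the rule. In Col the 25th percentile itself peaked near dawn, so as a covariate it can take up a dawn rhythm of any source. With the covariate, 95 of the 200 members fell under the Col amplitude threshold, which does not bear on *rve8-1*. Whether the dawn rhythm of these rows in Col came from the signal floor was thus not tested.

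**Figure D5:**
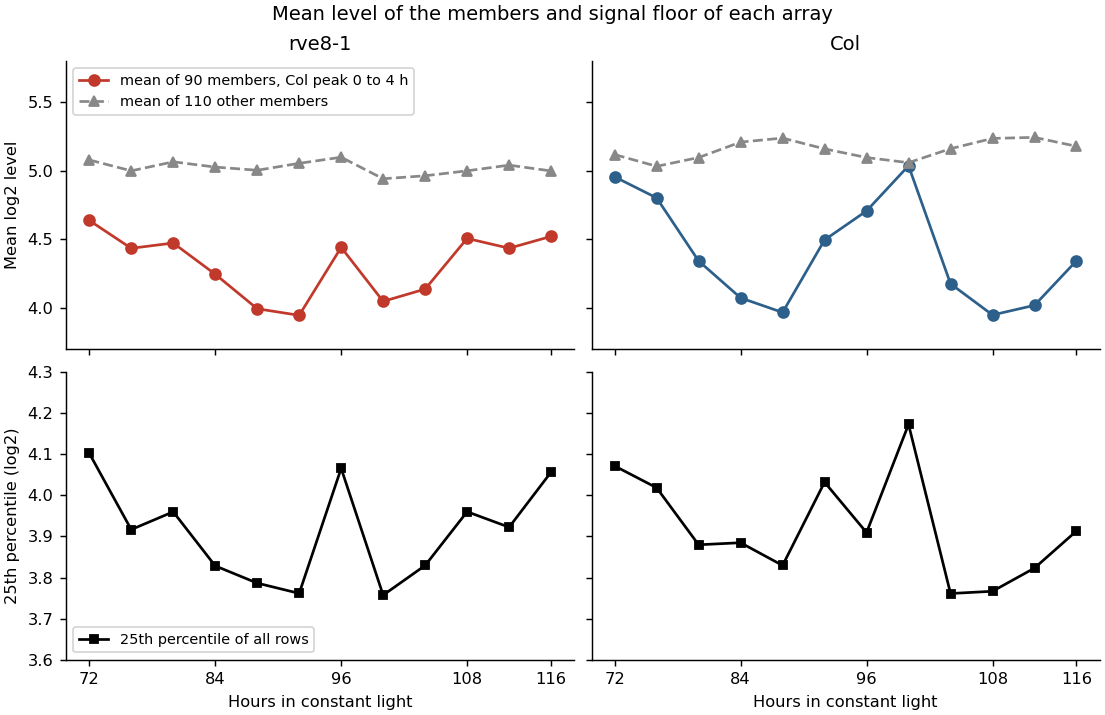
Mean log2 level of the 90 members with a Col peak from 0 to 4 h (circles) and of the 110 other members (triangles, upper panels), and the 25th percentile of all rows on each array (lower panels), against hours in constant light in *rve8-1* (left) and Col (right). In *rve8-1* the dawn members were highest at 72 h, where the 25th percentile was also highest, at 4.1.

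Named dawn members lay at levels near the expression threshold. *GLP6*, a germin-like protein, ranged from 3.64 (median 4.45) to 4.93 in *rve8-1* and from 4.03 (median 4.65) to 5.85 in Col, with amplitudes of 0.25 in *rve8-1* and 0.68 in Col. *IDA*, the peptide precursor that triggers organ abscission, ranged from 4.18 (median 4.62) to 5.26 in *rve8-1* and from 4.28 (median 4.72) to 5.40 in Col, and both genotypes were highest at 72 h. *MC2*, a metacaspase that restrains cell death, had amplitudes of 0.16 in *rve8-1* and 0.41 in Col. Its highest *rve8-1* and Col values were both 5.52. Each of these ratios exceeded 0.5 on day 4, at 0.618 for *GLP6*, 0.752 for *IDA* and 1.03 for *MC2*. On day 5 they were 0.320 for *GLP6*, 0.607 for *IDA* and 0.549 for *MC2*. Outside the dawn bin were the peptide genes *CLE4* and *RALFL10*, chosen after their values were seen. Neither passed the filter, and the *RALFL10* peak came just before that bin. Mean levels were 3.27 in *rve8-1* and 3.42 in Col for *CLE4*, and 3.73 in *rve8-1* and 4.01 in Col for *RALFL10*. Both genes thus lay at or near the signal floor. *CLE4*, with a Col peak at CT 21.7, had an amplitude of 0.10 in *rve8-1* and 0.75 in Col, and *RALFL10*, with a Col peak at CT 23.7, had 0.16 in *rve8-1* and 0.68 in Col. Their ratios were at or below 0.5 on each day (0.176 and 0.185 for *CLE4*, 0.458 and 0.454 for *RALFL10*), though the rule used both days. Both genes met the rule with the covariate and with each array left out. Of the 51 expressed dawn members, 1 was at or below 0.5 on both days. That share was 20 of the 73 expressed members with other peaks.

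Within a row, the mean level over the 6 times of day is estimated independently of the 24 h cosine. Over rows the level and the amplitude can still be linked, through the choice on Col values and near the signal floor. Mean level was tested with limma over all 19473 expressed rows. Of the 124 expressed members 4 were called, all lower in *rve8-1*, at a Benjamini-Hochberg adjusted p under 0.05. Over all expressed rows 0.657% were called lower and 0.416% higher. *RVE8* was lower by 2.14 log2 units (difference -2.14, standard error 0.09, adjusted p = 6.82e-10). *PHE1*, an imprinted MADS-box gene of the endosperm, fell to a mean of 4.08 in *rve8-1*, against 5.08 in Col (difference -1.0, standard error 0.15, adjusted p = 0.00546). It ranged from 3.46 (median 3.97) to 4.67 in *rve8-1* and from 4.36 (median 5.07) to 5.91 in Col. *RVE8* and *PHE1* passed the filter through Col alone, which selects rows that are higher in Col. Their *rve8-1* means, 3.95 and 4.08, lay near the signal floor, so the sizes of these differences are limited by it. *SEX4* averaged 7.76 in *rve8-1* and 8.12 in Col (difference -0.35, standard error 0.08, adjusted p = 0.0433), and AT1G65190 averaged 5.17 in *rve8-1* and 5.61 in Col (difference -0.44, standard error 0.09, adjusted p = 0.0411). The calls of *RVE8* and *PHE1* held with each array left out, while *SEX4* kept its call only when an *rve8-1* array from 76, 80, 84, 92, 96 or 112 h or the Col array from 116 h was the 1 left out. AT1G65190 kept its call only without an *rve8-1* array from 72, 76, 80, 92 or 112 h or the Col array from 72 h. Their adjusted p reached at most 0.0942.

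Over all 124, the level difference had a median of -0.09 and was negative for 96 (77.4%), against a median of 0.00 and 50.2% over all expressed rows. The other expressed rhythmic rows had a median of -0.04, and 61.1% were negative. Since 17 of the 124 passed the filter through Col alone, the share was also taken, after seeing the data, over rows that passed in each genotype. It was then 79 of 105 members (75.2%), against 61.1% of 1192 other rhythmic rows and 50.5% of all 18404 rows. At an unadjusted p under 0.05, 24 of the expressed members were lower and 5 higher in *rve8-1*, or 19.4% and 4.03%. Over all expressed rows 10.5% were lower and 9.62% higher, and among the other expressed rhythmic rows 19.1% were lower and 6.35% higher. At this unadjusted threshold the share of members that were lower was close to that of the other expressed rhythmic rows. At the adjusted threshold it was 3.23% in members and 1.73% in those rows, a difference that was not tested. The 3.23% includes *RVE8* and *PHE1*, which passed the filter through Col alone. With the filter required in each genotype, 2 of 105 members were called lower, and 118 of all 18404 rows.

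Other shapes of the time course were also tested. A component with a period of 12 h in *rve8-1*, which a 24 h fit does not see, was called for 0 of the 124 members and for 0.0% of all expressed rows at an adjusted p under 0.05 (limma, moderated F test). At an unadjusted p under 0.05 there were 14 members (11.3%), against 3.79% of all expressed rows and 6.43% of the other expressed rhythmic rows. This difference in share was not tested. The smallest p was that of AT4G06485, 0.00198, with an adjusted p of 0.995. The change of mean level from day 4 to day 5 differed between the genotypes for 0 members and for 0.0% of all expressed rows at an adjusted p under 0.05, and for 5 members at an unadjusted p under 0.05, against 3.64% of all expressed rows. AT1G72900, with the smallest of these p values (0.0197, adjusted p = 0.999), changed between the days by -0.49 in *rve8-1* and by 0.06 in Col. Among members matched in RefSeq, AT1G72900 and the adjacent AT1G72910 were the only ones that neighbour each other. Their levels correlated with r = 0.425 in *rve8-1* and 0.439 in Col over 12 arrays each, given as a description.

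Several genes named by the study for their expression fell outside the rule. Of 20 such genes, 10 were rhythmic in Col, with a median ratio of 0.758. *FT*, the mobile flowering signal, had a ratio of 0.637, and *TOC1* and *CCA1*, of the clock, had 1.06 and 0.929. AT5G20740 had an amplitude of 0.05 in *rve8-1* and 0.30 in Col, under the Col threshold. AT4G29610 was close to the limit at a ratio of 0.534.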

How the data were processed

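Whole seedlings of *rve8-1* and Col were measured on 24 AGRONOMICS1 tiling arrays, 12 per genotype. Per the methods, the authors removed probes that performed poorly and ran RMA, which subtracts background, equalizes the arrays and gives 1 value per TAIR9 gene model. The deposited table thus holds log2 levels for 30237 rows. The table held 0 columns of other samples. Scanner signal over background was not used here, and the number of arrays limits the precision.

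Cosines were fitted in Python 3.11.15 with numpy 2.4.6 and pandas 2.3.3. Mean levels (two-sided), 12 h components and day changes were tested with limma 3.58.1 in R 4.3.3, with 1 mean for each of 12 groups of genotype and time of day, 2 arrays per group, 12 residual and 3.58 prior degrees of freedom, and Benjamini-Hochberg adjustment over the 19473 expressed rows. When an array was left out, the lone array of its group was assumed to vary like the others. The 2 arrays of a group come from successive days, and nothing in the sources used here says that they are separate plantings. The tests were tried on simulated data. Figures were drawn with matplotlib 3.10.9.

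The members and the gene lists were chosen with earlier results of these data known. Genes were named if they were members on a list, had 1 of the 10 largest amplitude differences among expressed members or among those at or below 0.5 on each day, had 1 of the 5 largest called level changes in each direction, or lay nearest to the ratio limit (3 on each side). A gene that this rule names is not reported here. Other genes, relatives of members included, were chosen after their values were seen. These are *DOGT1*, *GBF6*, *IGMT5*, *P5CS2*, *AAS*, *TDT*, *OCT5*, *GSTF14*, *GLP6*, *IDA*, *MC2*, *CLE4*, *RALFL10*, *SRD2*, *SCPL51*, *ECT8*, *RPP13*, *CPUORF47*, AT1G01970, AT1G08230, AT1G22570, AT1G49990, AT1G71060, AT1G72900, AT1G72910, AT4G06485, AT4G34588 and AT5G61820. Alternatives covered the thresholds, the period, scaling, days, the expression filter, the variance prior, the replicate block and each array left out. Sequences, and coordinates in the build of the files, were not used here.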

Additional observations from a re-analysis of the deposited data

How the results depend on the processing

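The number of rows that met the rule was 124 among expressed rows alone, 106 with a Col R-squared of at least 0.7, 93 with a Col amplitude of at least 0.5, 772 on day 4 alone and 833 on day 5 alone. It was 450 with the 25th percentile of each array subtracted and 156 with it as a covariate, both chosen after seeing the data, and 67 of the 200 rows were among the 156. With 1 array left out it was 184 to 482. Other settings gave 139 to 280. The 4 members called lower in mean level became 2 without an expression filter (*RVE8* and *PHE1*), 2 with 4 arrays above 4.5 required in each genotype (*SEX4* and AT1G65190), 2 at an adjusted p under 0.01 (*RVE8* and *PHE1*) and 2 to 8 with 1 array left out, where 0 to 1 were called higher. Median centring called 5, with AT1G71060 added. The median ratio of rows chosen on 1 day was 1.08, and it was 1.05 with a ratio of at most 0.4, 1.05 with the days exchanged and, chosen after seeing the data, 1.07 in expressed rows and 0.623 and 0.832 with Col held to both days. Counts for the 12 h component and the day change were 0 under each alternative run, the day change not having been run with the day as a block. With the day as a replicate block the mean-level count was 4, the same 4 genes, and it changed no call. Over the 66 pairs of groups, day 5 minus day 4 differences correlated with a median of 0.0581 (-0.340 to 0.535), so the days were not taken as pairs. The limits are 1 time course per genotype, 2 arrays per time of day, and member levels near the signal floor.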

Other observations

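Other expressed members belonged to no list. *ECT8*, a YTH-domain reader of methylated RNA, had an amplitude of 0.20 in *rve8-1* and 0.43 in Col, with ratios of 0.521 on day 4 and 0.499 on day 5. *RPP13*, a downy mildew resistance gene, had 0.24 in *rve8-1* and 0.53 in Col, with ratios of 0.648 on day 4 and 0.332 on day 5. *CPUORF47* had 2 member rows, at ratios of 0.385 and 0.380, which stand for 1 locus and are not independent. On day 4 alone these rows had ratios of 0.568 and 0.562.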
